A study of Homo sapiens with 8 samples.

Results

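The centromere of human chromosome 16 is built on a long array of α-satellite DNA, and its binding by CENP-B was compared here between control and ERCC6L2-/- cells along the array. Chromosome 16 was cut into windows of 1 kb from its first base, and a window was a member when at least 1 base had coverage in either group. The 1961 windows chosen in this way are a part of the 35604 windows with coverage on all sequences, of which 35238 lie on assembled chromosomes. Coverage was the number of reads over a base in the deposited signal. CENP-B was immunoprecipitated from crosslinked chromatin of U2OS cells, a human osteosarcoma line, and the DNA was sequenced, in 3 control and 3 ERCC6L2-/- samples with 1 input sample of each background. The control group was U2OS without the knockout and the other group carried a CRISPR/Cas9 knockout of ERCC6L2, a gene for an ATPase of the SNF2 family. Both were grown in DMEM with serum, and the labels name no treatment. The knockout lines were clones raised from single cells, and which clone supplied the chromatin is not given in the sources used here, so a difference between clones and an effect of the gene cannot be told apart.

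The files hold 1 pooled value per base and group. No replicate error, interval or test could therefore be had, and each difference below compares 1 pooled value with another. The depth of the libraries is unknown. The authors listed values only inside the regions they called in a group, so a base outside these regions entered as 0, and a value of 0 there says that no region was listed and not that no read was seen. Over the assembled chromosomes the summed coverage was lower in ERCC6L2-/- cells. Dividing each group by this sum adds 1.10 to every log2 ratio of summed or mean coverage given below. The sum holds only listed coverage, so a loss of listed regions itself lowers it, and it does not measure library depth. Scaling to bases covered in both groups outside centromeric bins adds 0.57. Ratios of windows include 1 added read and move by less, and ratios of covered length do not move. Centromeric bins are the 100 kb bins with at least 10 CENP-B boxes.

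CENP-B is a DNA-binding protein of the centromere that recognises the CENP-B box, a short motif carried by some of the repeat units of α-satellite DNA. These units, called monomers, follow each other head to tail, and groups of them recur as higher-order repeats. CENP-B supports the centromeric chromatin on which the kinetochore is built. As background for every position below, GRCh38 represents such arrays largely by modelled sequence, so the order of the repeats in the reference need not be that in the cells.

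The boxes are shown first because they are the sites at which CENP-B is known to bind. They were found as TTCGNNNNANNCGGG on either strand, which leaves out a free base on both sides of the box. Chromosome 16 of GRCh38 holds 5522 matches, of which 5355 lie in the member windows. A box was present in 1946 of the 1961 members, or 99.2%. Among the 81788 windows of the chromosome without unknown bases it was present in 2.51%, and among the 79837 of these that were no members in 0.138%. The member windows held 14 distinct versions. The 3 commonest are printed with the fixed bases of the motif in capitals.
Box a: TTCGttggAaaCGGG
Box b: TTCGttggAagCGGG
Box c: TTCGttgcAaaCGGG
Box a made up 5157 copies, or 96.3% of the boxes in the members, box b 106 copies and box c 52 copies.

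The monomers around the boxes show how the covered places of the chromosome are related. Each is 171 bases long and is read along the strand of its box, which is in capitals. The first is the commonest monomer of the array in its first copy, at chr16:36355707-36355877 on the plus strand. The others surround the box with the highest control coverage in 2 short pieces at the far end of the array and in 2 sites outside it, described below. They lie on the minus strand at chr16:38266850-38267020, chr16:38276348-38276518, chr16:34623090-34623260 and chr16:34730019-34730189.
Array: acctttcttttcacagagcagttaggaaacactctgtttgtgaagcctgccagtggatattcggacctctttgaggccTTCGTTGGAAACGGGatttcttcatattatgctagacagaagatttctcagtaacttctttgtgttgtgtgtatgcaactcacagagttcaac
End piece 1: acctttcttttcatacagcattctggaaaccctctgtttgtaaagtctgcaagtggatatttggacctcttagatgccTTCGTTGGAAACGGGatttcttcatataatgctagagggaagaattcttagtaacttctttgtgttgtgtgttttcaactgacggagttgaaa
End piece 2: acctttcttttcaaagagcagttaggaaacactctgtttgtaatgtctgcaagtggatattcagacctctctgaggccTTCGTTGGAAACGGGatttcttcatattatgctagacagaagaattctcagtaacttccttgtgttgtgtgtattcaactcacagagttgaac
Site 1: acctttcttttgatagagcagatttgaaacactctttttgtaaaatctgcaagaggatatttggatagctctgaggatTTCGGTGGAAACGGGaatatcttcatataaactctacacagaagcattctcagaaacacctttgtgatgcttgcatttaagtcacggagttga
Site 2: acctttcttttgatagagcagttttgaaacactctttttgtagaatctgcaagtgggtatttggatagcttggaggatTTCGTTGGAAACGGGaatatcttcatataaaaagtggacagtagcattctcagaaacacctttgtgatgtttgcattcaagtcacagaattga
Counted in single-base edits, the monomer of end piece 2 was 11 away from that of the array and the monomer of end piece 1 was 23 away. Those of sites 1 and 2 were 42 and 40 away.

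In control cells coverage ran almost without a break along the array, from 36334088 to 38269062, and again from 38275874 to 38280546. In ERCC6L2-/- cells it was kept in a region of 739306 bases at the short-arm side, chr16:36334190-37073495, and in the 2 end pieces at the long-arm side. With the 102 bases before it from the start of control coverage, this region is called the kept stretch, of 739408 bases. Between these, chr16:37073496-38265669, a stretch of 1192174 bases, had no listed coverage in ERCC6L2-/- cells. This lost stretch held 1188815 control-only bases, which is 98.4% of those of the chromosome. Its other 3359 bases had no control coverage and divided the control-only bases into 159 unbroken runs, the longest of 43676 bases. Another 1.43% lay in 2 sites on the short-arm side of the array.

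**Figure D1:**
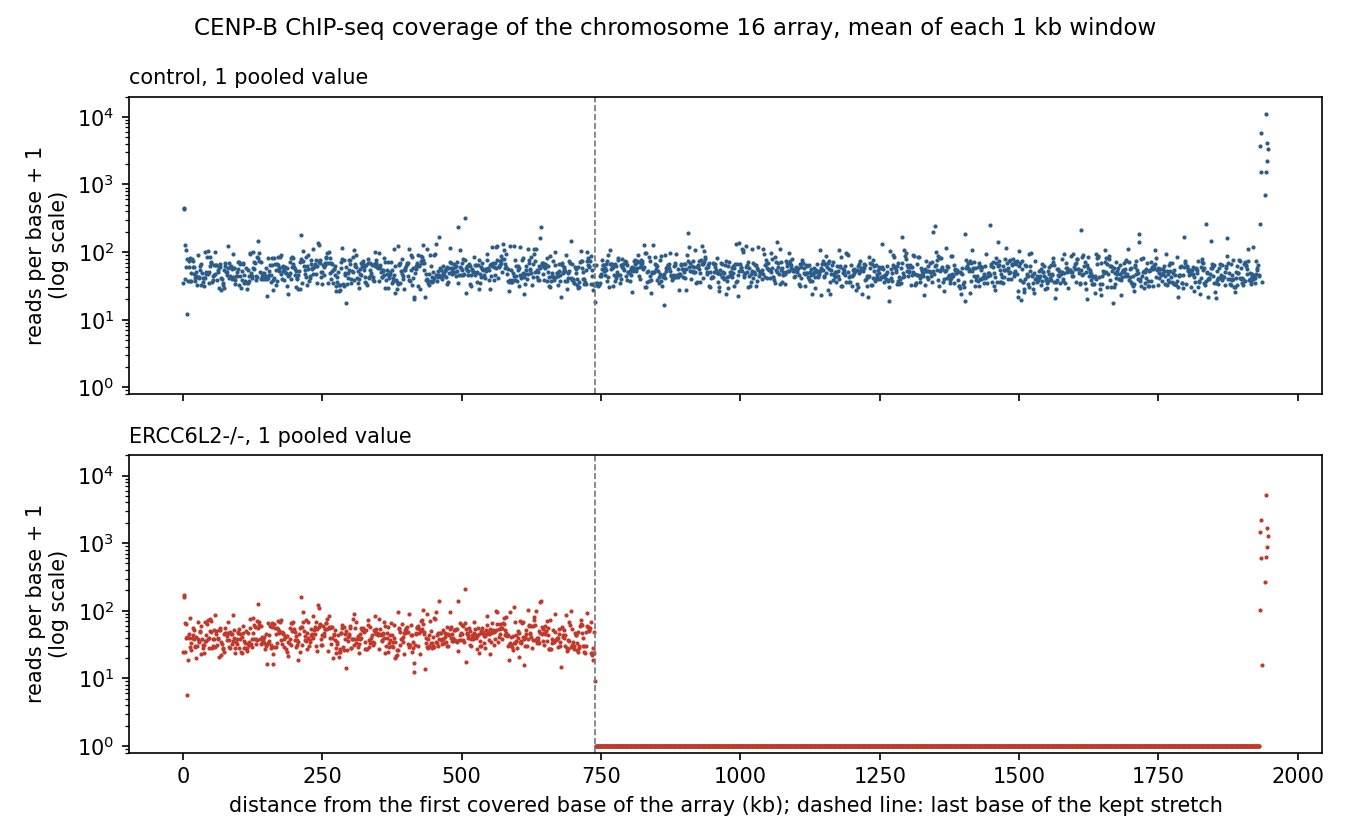
Mean coverage of each 1 kb window along the array, in reads per base plus 1 on a log scale, against the distance in kb from the first covered base, with control above and ERCC6L2-/- below. Control points form 1 level band across the dashed line that ends the kept stretch, ERCC6L2-/- points lie at the value for no listed coverage from there to the end pieces, and the end pieces at the right are the highest points of both groups. As deposited the kept points are lower in ERCC6L2-/- cells, and either scaling turns this direction for the mean over the kept stretch.

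Of the 1961 members, 751 windows (38.3%) were covered in both groups, 1210 (61.7%) in control only and 0 in ERCC6L2-/- only. Over all sequences, 40.3% of covered windows had no coverage in ERCC6L2-/- cells and 0.424% had none in control. By the ratio of mean coverage plus 1 read, 1228 members (62.6%) were under 0.5 in ERCC6L2-/- cells, against 44.6% of the windows of all sequences, members included. No member had a ratio over 2, against 0.424% of the windows of all sequences. Most of the low ratios thus came from windows without listed coverage. As deposited, 19 (2.53%) of the 751 windows covered in both groups were under 0.5 and 0 were over 2. The windows of all sequences gave 7.28% and 0.00474%. With either scaling none of the 751 was under 0.5, and scaling to total coverage put 9 over 2.

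Counted in bases, control coverage reached 1952042 bases of chromosome 16 and ERCC6L2-/- coverage 744219, which gives a log2 ratio of -1.39. Both groups covered 743817 of these, or 38.1% of the control bases, and 402 bases were covered in ERCC6L2-/- cells only. The sum of coverage over the chromosome was 68.5% lower with the knockout, at a log2 ratio of -1.67. Shared bases averaged 104 reads in control against 63.6 in ERCC6L2-/- cells, a log2 ratio of -0.70. With each group scaled to its total listed coverage, which a loss of listed regions itself lowers, this ratio turned to 0.40. Most shared bases, 735909, lay in the kept stretch, with 58.2 reads in control against 45.1, a log2 ratio of -0.37. The end pieces, with 3281 and 4627 shared bases, averaged 3421 and 4983 control reads over these. Their log2 ratios were -1.35 and -1.24.

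Control levels overlapped between the kept and the lost stretch. Mean control coverage was 57.9 reads per base over the kept stretch and 54.3 reads over the lost stretch. In the 6 steps of 100 kb that lay wholly in the kept stretch, the control mean ran from 53.0 to 61.5 reads, and in the 11 steps wholly in the lost stretch from 49.8 to 59.0 reads, so these ranges overlap. Windows of 1 kb had a median control level of 51.7 reads in the kept stretch, with a highest value of 446, and of 50.2 reads in the lost stretch, with a highest value of 257. The 740 windows of the kept stretch had an ERCC6L2-/- median of 41.6 reads, with a range of 4.71 to 208.

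Box content was close in both stretches. The kept stretch holds 2019 boxes, or 2.73 per kb, and the lost stretch 3313, or 2.78 per kb. Neighbouring boxes lie a median of 340 bases apart in both, which is the length of a pair of monomers, and nearly all are on the plus strand, with 5 and 2 exceptions. The GC content was 39.5% in each stretch. When each stretch was laid over itself and moved along, identity was highest at a shift of 340 bases, with 69.7% of bases identical in the kept stretch and 69.4% in the lost stretch. A shift of 1699 bases, near 10 monomers, gave 58.2% and 55.1%.

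The sequences of both stretches are largely the same. Of the 50-base words of the kept stretch, counted at every position and on either strand, 95.5% also occur in the lost stretch, and of those of the lost stretch 95.3% occur in the kept stretch. A word occurred a median of 898 times on chromosome 16 in the kept stretch and of 899 times in the lost stretch. Words found a single time in the whole reference made up 2.83% and 2.39%. On other assembled chromosomes, 42.3% and 42.8% of the words recurred. A read of 50 bases from one stretch would therefore mostly match the other equally well. The read length and the placement of reads that match several sites are not given in the sources used here, and their part in the loss was not tested.

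Coverage differed little by how often a word recurs, except for the rarest words in the kept stretch. Around bases whose word occurs once on chromosome 16, control coverage averaged 83.3 reads in the kept stretch and 52.5 reads in the lost stretch. A start piece of 3006 bases in the kept stretch, described below, had a mean of 340 control reads, and its part in this class was not tested. Where the word occurs at least 100 but under 1000 times, as for 64.3% and 65.7% of the bases, the control means were 57.0 and 54.6 reads. ERCC6L2-/- means in the kept stretch were 42.4 and 45.8 reads for these classes. The lost stretch, with 30843 bases whose word is found once on the chromosome, has no listed ERCC6L2-/- coverage by its definition. Absence in each class is therefore fixed, and dependence of the loss on word copies was not tested.

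The end of the kept stretch is a single base, 37073495, at which the ERCC6L2-/- region closed with 7 reads. Control had 10 reads at this base and 9 at the next. The sequence around it is shown because ERCC6L2-/- coverage stops in it, chr16:37073346-37073645, plus strand, with the 150 bases after the edge in capitals.
Edge: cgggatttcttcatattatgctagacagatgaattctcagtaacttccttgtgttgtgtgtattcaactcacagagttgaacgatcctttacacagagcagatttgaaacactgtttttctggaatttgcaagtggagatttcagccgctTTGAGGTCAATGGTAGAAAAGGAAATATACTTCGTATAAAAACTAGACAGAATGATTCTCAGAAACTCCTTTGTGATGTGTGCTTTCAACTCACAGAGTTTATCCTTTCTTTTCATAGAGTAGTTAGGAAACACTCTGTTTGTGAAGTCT
No unknown bases of the reference lie at this edge, and the middle of the nearest box is 153 bases away.

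Control coverage was low just past the edge and then returned to its former level. A run of 298 bases with at most 5 reads began 14 bases after the edge. Mean control coverage was 30.5 reads in the last 1 kb before the edge and 15.0 reads in the first 1 kb after it. Over 10 kb the means were 47.8 and 36.1 reads, and over 100 kb they were 55.9 on both sides. The ERCC6L2-/- mean was 22.7 reads in the last 1 kb and 33.0 reads in the last 10 kb.

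**Figure D2:**
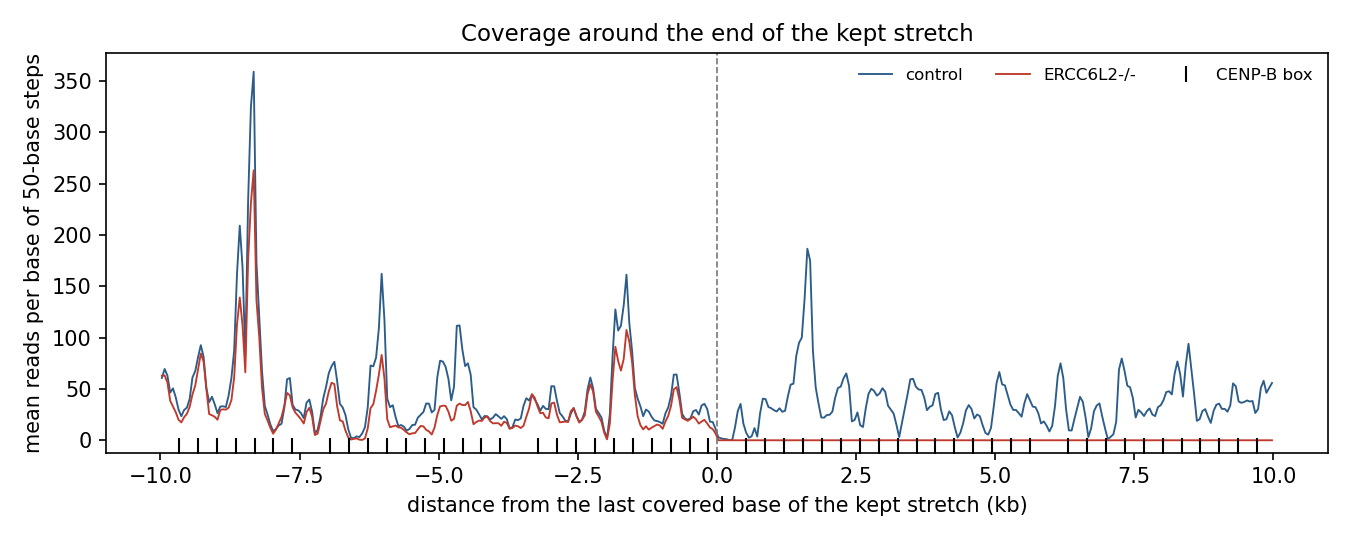
Mean reads per base in steps of 50 bases within 10 kb of the last base of the kept stretch, with control and ERCC6L2-/- as lines, the edge as a dashed line at 0 and CENP-B boxes as ticks. Both lines rise and fall together up to the edge, and past it the control line continues, with a mean of 36.1 reads over 10 kb, while ERCC6L2-/- has no listed value and is drawn at 0.

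Low points of this kind were not limited to the edge. Runs of at least 100 bases with a control value of at most 5 occurred 31 times in the kept stretch and 49 times in the lost stretch. Unlisted and unknown bases were not left out, so these counts mix low coverage with gaps of the reference and breaks in listing. The longest run of the kept stretch had 450 bases. The longest of the lost stretch, of 733 bases, is a break between listed control regions and not a run of low read counts. In ERCC6L2-/- cells the kept stretch held 81 runs by the same rule. The longest had 532 bases, and the listed region continued across it. Control itself had breaks of 733 bases at 37462340 and of 664 bases at 37955884, and each contains 100 unknown bases. The break of 6811 bases at 38269063 is nearly filled by an assembly gap of 6662 bases.

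Inside the kept stretch windows high in control were high in ERCC6L2-/- cells. Control and ERCC6L2-/- means of its 740 windows were correlated with a Pearson's r of 0.90 and a Spearman's rho of 0.95, across windows that share libraries and sequence and are not replicates. The median log2 ratio was -0.32 as deposited, with quartiles at -0.41 and -0.23. In the windows covered in both groups over all sequences the median was -0.63. Over the bases shared by both groups in the kept stretch the mean was 58.2 reads in control against 45.1 in ERCC6L2-/- cells, a log2 ratio of -0.37 as deposited that turned to 0.20 with scaling to shared bases outside centromeric bins and to 0.73 with scaling to total coverage.

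The highest ratio was that of the window from 36773001, with 36.7 reads in control against 36.8 in ERCC6L2-/- cells. Next were the windows from 36384001, with 71.1 and 69.6 reads, and from 36536001, with 29.0 and 27.9 reads. The lowest ratios were at the very start of the array. The window from 36336001 had 435 reads in control against 156 in ERCC6L2-/- cells, a log2 ratio of -1.47, and that from 36335001 had 446 and 170 reads, a log2 ratio of -1.39. The next lowest was the window from 38275001, where end piece 2 begins, with 696 and 267 reads and coverage over 127 and 109 of its bases.

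The 2 lowest windows belong to a start piece of 3006 bases between gaps of the reference, chr16:36334561-36337566. It holds 5 boxes and had a mean of 340 reads in control against 134 in ERCC6L2-/- cells, a log2 ratio over shared bases of -1.34. In the rest of the kept stretch the means were 56.8 and 44.5 reads and the ratio was -0.35. Scaling moves both by the same amount and leaves their order. Of the 8 windows of the kept stretch under a ratio of 0.5, 6 began between 36335001 and 36357001, and the other 2 at 37068001 and 37073001. The last of these contains the edge, and its ratio counts control coverage past the edge, where ERCC6L2-/- cells had none listed.

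The end pieces were the most heavily covered places of the chromosome in both groups. End piece 1, chr16:38265770-38269096, follows directly on a gap of 100 unknown bases and carries 5 boxes, all on the minus strand, opposite to nearly all boxes of the array. Its mean was 3374 reads in control against 1323 in ERCC6L2-/- cells, with a log2 ratio of -1.35 over shared bases. End piece 2, chr16:38275759-38280682, carries 7 boxes on the minus strand, and its means were 4686 and 1986 reads, with a log2 ratio of -1.24. It ends at an assembly gap of 8100000 bases.

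These pieces are 8251 bases of the reference together. They took 7.47% and 15.3% of the control coverage of chromosome 16 and 9.30% and 20.7% of the ERCC6L2-/- coverage. For the kept stretch the shares were 28.5% in control and 70.0% in ERCC6L2-/- cells. All shares in ERCC6L2-/- cells are of a sum without the lost stretch, which took 43.0% in control. The highest window of both groups was that from 38276001 in end piece 2, with 11151 reads in control against 5094 in ERCC6L2-/- cells. It was followed in both by the window from 38267001 in end piece 1, with 5677 and 2205 reads, and by that from 38279001 in end piece 2, with 4147 and 1658 reads.

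All 11 windows of the end pieces had a ratio under 0.5 as deposited, with log2 ratios from -1.38 to -1.13. With either scaling none of them was under 0.5. Ordered by control level, the 698 windows below 100 reads had medians between -0.32 and -0.31 in 3 classes, the 42 windows between 100 and 400 reads a median of -0.37, and the 11 windows of 400 reads or more a median of -1.35. The last class was made up of the 2 highest windows of the start piece and 9 windows of the end pieces.

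**Figure D3:**
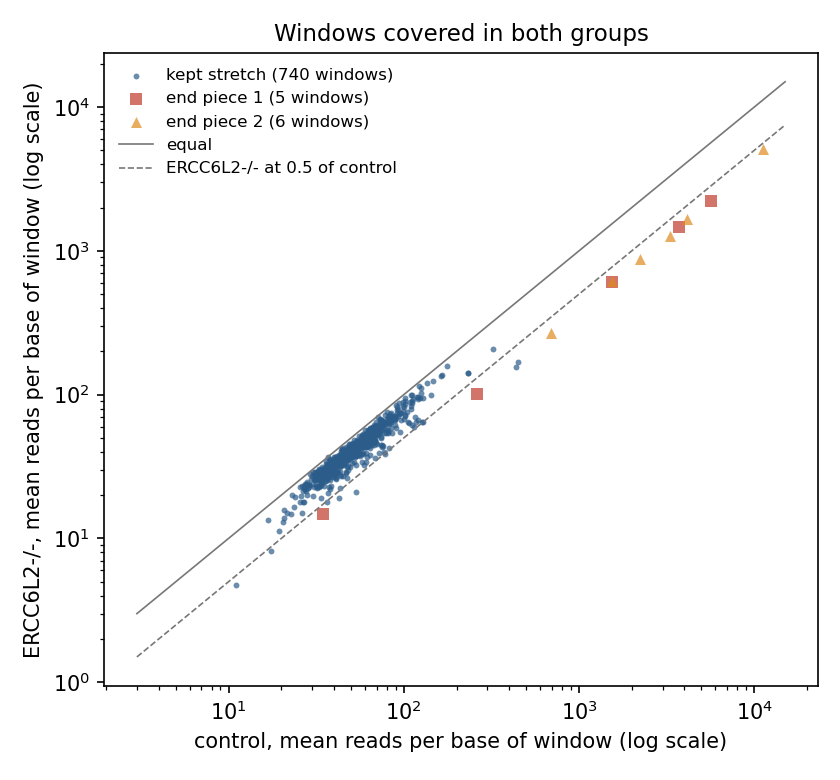
Mean reads per base of ERCC6L2-/- against control on log axes for the 751 windows covered in both groups, with lines at equal values and at a ratio of 0.5. Windows of the kept stretch lie between the lines with few exceptions, and the 11 windows of the end pieces lie below a ratio of 0.5, as deposited. Each scaling moves all points up by a common distance and puts most windows of the kept stretch above the line of equal values.

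A smaller share of the words of the end pieces occurs in the array than the 95.5% and 95.3% shared between its kept and lost stretches. Of the 50-base words of end piece 1, 58.5% occur in the kept or lost stretch, 53.4% in the kept and 40.5% in the lost stretch. For end piece 2 the shares were 78.0%, 67.1% and 58.3%. Words found once in the reference made up 28.5% of end piece 1 and 17.6% of end piece 2. Their coverage relative to the array was not set against the number of such copies in the cells, which these files do not give.

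Coverage at the middle of the box is given by stretch, and boxes of the lost stretch have none in ERCC6L2-/- cells by its definition. Control had coverage at 5353 of the 5522 boxes and ERCC6L2-/- cells at 2027. Another 3326 were covered in control only and 169 in neither group. In the kept stretch the 1949 copies of box a had a mean of 62.3 reads in control against 48.9 in ERCC6L2-/- cells, and in the lost stretch the 3189 copies had 57.7 reads in control. The 36 copies of box b in the kept stretch had 89.8 and 61.2 reads, with medians of 70 and 57, and the 19 copies of box c had 53.9 and 37.6 reads. In the lost stretch, control means were 64.1 reads for 70 copies of box b and 39.9 reads for 33 copies of box c. In the kept stretch both groups held these boxes in the same order of means. By medians box c, with 50 reads in control and 41 in ERCC6L2-/- cells, was not below box a, with 49 and 40. The same 3 boxes are found in the stretch that was lost.

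The commonest monomer allowed identical sequence to be compared across the edge. It has 594 identical copies, 204 in the kept and 390 in the lost stretch. At the box middle, control coverage was 67.5 ± 31.3 reads in the kept copies and 65.7 ± 29.2 reads in the lost copies, where the SD is over copies and not over samples. In control it ran from 19 to 255 reads in the kept copies and from 11 to 178 reads in the lost ones. ERCC6L2-/- coverage was 57.1 ± 25.7 reads in the kept copies, with a range of 10 to 192 reads. The 390 copies in the lost stretch have none listed because the stretch was defined by this absence.

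Averaged over boxes, the profile had the same shape in both groups and stretches. In the kept stretch it stood at 62.5 reads in control against 48.9 in ERCC6L2-/- cells at the middle of the box. Its peak lay 72 bases past the middle, with 66.6 and 52.2 reads, and lowest 161 bases before it, at 34.8 and 28.6 reads. Control in the lost stretch had the same positions, with 57.5, 62.4 and 33.5 reads. The highest point was 1.91 times the lowest in control and 1.83 times in ERCC6L2-/- cells in the kept stretch, and 1.87 times in the lost stretch in control.

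**Figure D4:**
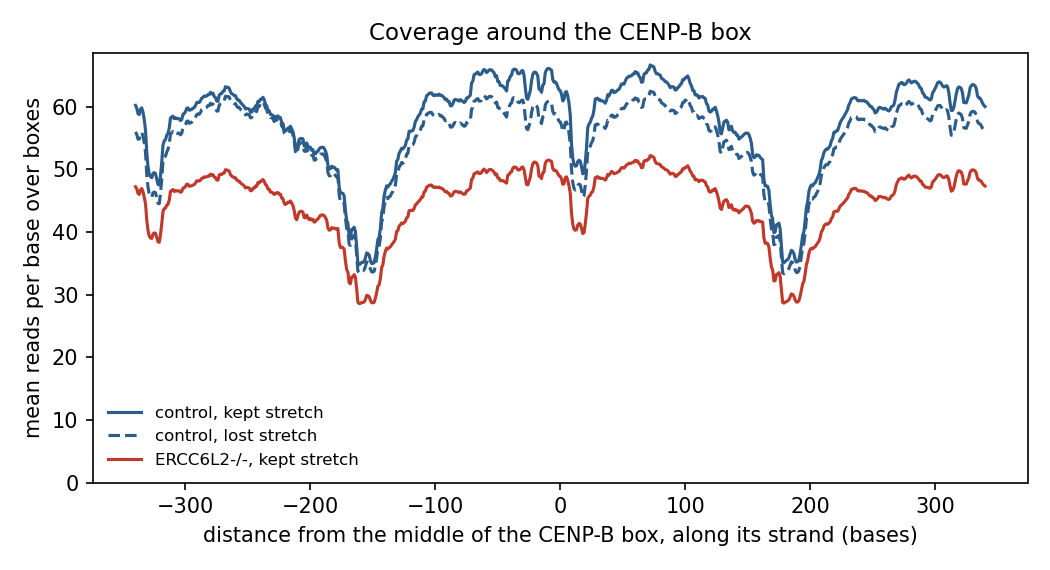
Mean reads per base within 340 bases of the middle of the CENP-B box, read along the strand of the box, over the 2017 boxes of the kept stretch in both groups and the 3312 boxes of the lost stretch in control that lie far enough from an end. The curves have their high and low points at the same distances, and the ERCC6L2-/- curve is lower as deposited, a direction that either scaling turns.

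Boxes without coverage lay mostly at places outside the array. A box-rich place of 89329 bases, chr16:34200001-34289329, holds 90 boxes and had no listed coverage in either group. The 22929 bases before the first covered base, chr16:36311159-36334087, hold 33 boxes and had none either. Of their words, 15.4% and 7.29% occur in the array.

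The 2 control-only sites lie on the short-arm side of the array, the nearer one 1601763 bases before it, with 103045 bases between them. Site 1, chr16:34612062-34625948, covers 13887 bases and had a mean of 435 reads in control. Site 2, chr16:34728994-34732324, covers 3331 bases and had a mean of 753 reads. Neither had listed coverage in ERCC6L2-/- cells. They held 4.02% and 1.67% of the control coverage of chromosome 16, and per base they were covered more highly than the array.

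Coverage within the sites was uneven. At site 1 the 14 windows ran from 56.6 reads in the window from 34615001 to 1684 reads in that from 34620001, with a median of 302 reads. Its highest base had 6648 reads, 36 bases from the middle of a box, and 1437 bases with at least 1000 reads held 62.4% of its coverage. At site 2 the window from 34730001 had 2010 reads, and the other 4 windows between 0.772 and 250 reads, the lowest being the window in which the site begins. Its highest base had 15310 reads, 23 bases from the middle of a box, and 195 bases with at least 1000 reads held 70.8% of its coverage.

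All boxes of the sites are on the minus strand. Site 1 holds 8, of which 5 are box a, with control coverage at their middles from 108 to 3330 reads. The highest of these was at the box in the monomer printed above, which is not box a, and the next, with 1712 reads, was at a copy of box a. Site 2 holds 3 copies of box a, with 13133, 613 and 283 reads. The same box sequence thus stood beside very different levels within 1 site. Bases within 85 bases of the middle of a box made up 9.04% of site 1 and held 20.6% of its coverage, and 15.4% of site 2 with 63.1% of its coverage.

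**Figure D5:**
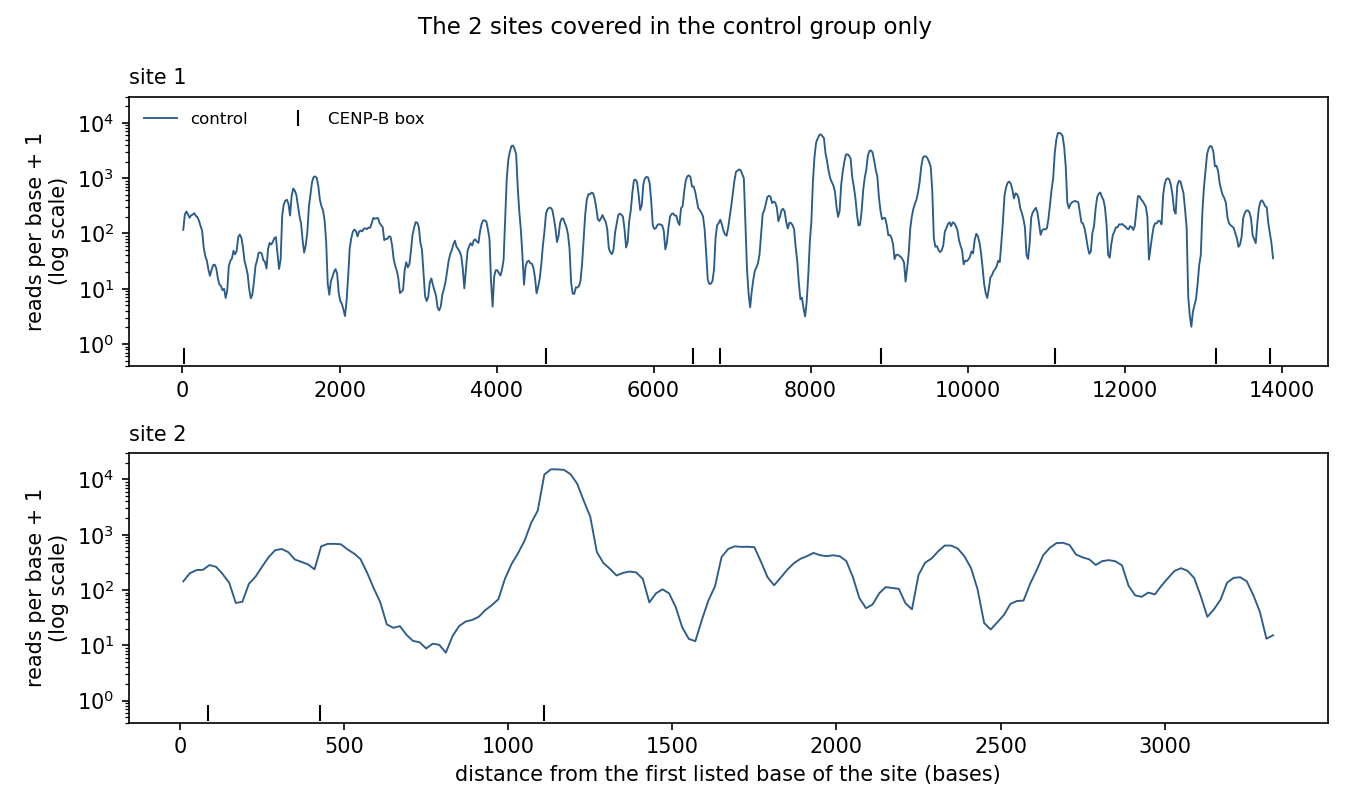
Control coverage along the 2 control-only sites in reads per base plus 1 on a log scale, against the distance in bases from the first listed base, with CENP-B boxes as ticks. Site 1 has several peaks, some with no box beneath them, and site 2 has 1 main peak beside 1 of its boxes. ERCC6L2-/- cells had no listed value at either site.

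The sites differ in sequence from the array. At both, identity with the own sequence was highest at a shift of 171 bases, the length of 1 monomer, with 65.2% of bases identical at site 1 and 61.8% at site 2. Of their 50-base words, 0.173% and 1.19% occur in the array, 84.6% and 67.9% are found once in the reference, and 11.6% and 15.0% occur on another assembled chromosome. Most of their words thus have 1 place in the reference, unlike those of the lost stretch. Box density was 0.576 and 0.901 per kb, below that of the array.

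No gene of GENCODE release 44 overlaps the sites or the array. The nearest gene before the sites is ENSG00000286968, an unprocessed pseudogene, 163195 bases from site 1 and 280127 bases from site 2. After them comes ENSG00000279165, a transcript still to be verified, 316028 and 209652 bases away. Before the array the nearest is the processed pseudogene PPP1R1AP2 at 421571 bases, and after it the long noncoding RNA gene ENSG00000290429 at 8188658 bases. The nearest protein-coding gene after the array is SHCBP1 at 8297908 bases. Both distances after the array include the assembly gap of 8100000 unknown bases.

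Set beside other chromosomes, the loss on chromosome 16 lay close together when short gaps were joined. In the 15 chromosomes with at least 100000 control-only bases, such bases were joined into runs across gaps of up to 1 kb. The longest run then held 98.4% of them on chromosome 16 and 98.2% on chromosome 9, with at most 71.6% on each of the others. Without joining, the longest run held 3.61% on chromosome 16, which ranked 6 of the 15, and 2.68% on chromosome 9. Chromosome 9 had control coverage over 2274937 bases and ERCC6L2-/- coverage over 102743, and the median log2 ratio of its windows covered in both groups was -1.31 against -0.32 on chromosome 16. Among the 18 chromosomes with at least 100 such windows, chromosome 16 ranked 8 from the top, and the median over chromosomes was -0.57. With 1 pooled value per group no test of these differences could be made.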

How the data were processed

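CENP-B ChIP-seq reads were checked with FastQC, trimmed with Trim Galore and mapped with Bowtie2 by the authors, who used MACS2 to call peaks, an FDR limit to filter them and MSPC to merge replicates. They deposited coverage signal inside these regions as 1 pooled value per base and group, in whole reads per base, described in the paper as an average. Chromatin had been digested with MNase. Versions, scaling, duplicates and the placement of reads matching several sites are not given in the sources used here. Per the labels the build is GRCh38. Input samples were not analysed here.

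Intervals were expanded to bases with Python 3.11.15 and numpy 2.4.6, closed and counted from 1. No unknown base of chromosome 16 had a value above 0 in either group. Unlisted bases were 0. Windows of 1 kb were compared by the ratio of mean coverage plus 1 read, with limits of 0.5 and 2 on size, since no test was possible. The calling was run on Poisson draws from the control profile of the array, with changes larger than these limits in 200 of 1934 windows. It called all 200 and 0 others. The draws had no listing of regions and no differences between libraries, so they do not show how reliable the calls are here. Words of 50 bases were counted over the whole reference, monomers were aligned with edlib 1.3.9.post1, and correlations came from numpy and scipy 1.17.1. Figures used matplotlib 3.10.9.

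The members and the items named (all control-only regions before the array, the longest runs, the first, last, highest and lowest windows, the commonest boxes and the nearest genes) were chosen with earlier results of these data known. The start piece, the rest of the windows under 0.5, the breaks and low runs, the edge, the uncovered box-rich places and the comparison with chromosome 9 were chosen after their values were seen. Alternatives were 2 scalings, minimums of 10 and 50 reads per covered base, centromeric bins only, a cap, 10 kb windows, a pseudocount of 10, 2 filters on windows and, added after seeing the data, runs without joining.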

Additional observations from a re-analysis of the deposited data

How the results depend on the processing

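No paired analysis was possible because each group has 1 pooled column without replicates, and leaving out a replicate was not run for the same reason. Scaling to total coverage moved the log2 ratio of summed coverage to -0.57, turned that over shared bases to 0.40 and put 9 windows over a ratio of 2. Scaling to shared bases outside centromeric bins, of which there were 9933, gave -1.10 and -0.13. Counting bases as covered from 10 reads gave log2 ratios of -1.43 for covered length, -1.67 for summed coverage and -0.70 over shared bases, with 37.0% of control bases kept. From 50 reads these were -1.85, -1.82, -0.82 and 27.4%. Within centromeric bins the covered length ratio was -1.38, the summed ratio -1.58 and the kept share 38.4%. A cap at 735 reads gave -1.64 for summed coverage and -0.34 over shared bases. Control means over shared bases were 3421 and 4983 reads in the end pieces, above this cap, and 58.2 reads in the kept stretch. The part of the end pieces in this change was not tested. Windows of 10 kb gave 127 lower of 200, and windows covered in both groups 19 lower of 751. Both scalings gave 1209 lower windows, and no window covered in both groups was among them. The log2 ratios of end pieces 1 and 2 over shared bases became -0.25 and -0.14 with scaling to total coverage. Scaling to shared bases outside centromeric bins gave -0.78 and -0.67. A pseudocount of 10 reads gave 1222 lower windows, and windows covered over at least 50% gave 1223. Except under scaling to total coverage, the higher windows stayed at 0. Counting unbroken runs, chosen after seeing the data, moved the share of control-only bases in the longest run from 98.4% to 3.61%. The unknown library depth and the single pooled value limit every ratio.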
